A study of Homo sapiens with 24 samples.

Results

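The genes described here are 10 genes of the autophagy machinery, out of 58721 gene identifiers that were counted in each of 24 RNA-seq libraries of A549 cells. They comprise 4 genes of the ATG8 family (MAP1LC3B, GABARAP, GABARAPL1 and GABARAPL2), 3 cargo receptors (SQSTM1, NBR1 and OPTN), the initiating kinase ULK1, the membrane effector WIPI1 and the transcription factor TFEB. They were taken by gene symbol, with no threshold on a measured value. These genes and the lists of related genes used below were chosen with earlier results of these data known. Their shares of calls and medians beside those of all genes are therefore descriptions and not tests. A549 is an established human lung adenocarcinoma line with a loss-of-function mutation in KEAP1, and all groups are cultures of this line. Cells were transfected with 25 nM siRNA against MYBL2 (siMYBL2, n = 4) or FOXM1 (siFOXM1, n = 4), and these groups share 4 siControl libraries that received scrambled siRNA. Co-transfection of both siRNAs (siBoth, n = 3) has 3 control libraries of its own (siControl_Both). FDI-6, a small molecule described as blocking FOXM1 from binding DNA, was given at 20 µM for 24 h (FDI6, n = 3) and has 3 control libraries (control_FDI6). The study's list of comparisons sets FDI-6 against DMSO, while the labels call these libraries only controls. The time between transfection and harvest is not given in the sources used here. The question for these genes is how their mRNA responds when either transcription factor is depleted, and whether the compound gives the response of the FOXM1 knockdown.

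Macroautophagy encloses cargo in a double-membraned autophagosome that fuses with the lysosome. The ULK1 kinase complex starts the process, WIPI proteins read the lipid PI3P on the growing membrane, and ATG8 proteins become attached to that membrane. Cargo receptors such as SQSTM1 (p62), NBR1 and OPTN (optineurin) bind ubiquitinated cargo and hold it to ATG8 through short LC3-interacting motifs. The receptors and LC3 are themselves degraded in the lysosome, so mRNA and protein levels of these genes can move apart, and only mRNA was measured here. TFEB and its relatives of the MiT/TFE family switch on autophagy and lysosome genes when they enter the nucleus, which is governed by phosphorylation rather than by TFEB mRNA. SQSTM1 is also a target of NRF2, the factor that KEAP1 restrains.

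On hg38, SQSTM1 (ENSG00000161011.19) lies at chr5:179806398-179838078, NBR1 (ENSG00000188554.13) at chr17:43170481-43211689 and OPTN (ENSG00000123240.16) at chr10:13099449-13138308. Of the ATG8 genes, MAP1LC3B (ENSG00000140941.12) lies at chr16:87383953-87404779, GABARAPL2 (ENSG00000034713.7) at chr16:75566375-75577881, GABARAPL1 (ENSG00000139112.10) at chr12:10212458-10223128 and GABARAP (ENSG00000170296.9) at chr17:7240008-7242449. ULK1 (ENSG00000177169.9) lies at chr12:131894622-131923150, WIPI1 (ENSG00000070540.12) at chr17:68420948-68457513 and TFEB (ENSG00000112561.17) at chr6:41683978-41736259. The values count read pairs over the exons of each whole gene, so isoforms were not separated. In GENCODE V44, 22.4% of the exon bases of SQSTM1 also lie in opposite-strand genes (MGAT4B and MRNIP). So do 28.1% of those of WIPI1 (ARSG and a gene without a symbol). The counts were made on GENCODE V29, in which these shares may differ. The strand setting of the counting is not given in the sources used here. ARSG had 58 to 113 counts per library against 87 to 944 for WIPI1, while MGAT4B and MRNIP reached 7113 and 1415 counts against at least 11471 for SQSTM1.

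Promoter windows from 250 bases before to 50 bases after the start site (RefSeq, GRCh38.p14) were searched on both strands for 5 short motifs, because the cells were depleted of a forkhead factor and of a factor that acts at cell cycle promoters. The 10 genes had 16 windows, and 34943 windows were searched in all. None of the 16 windows held CACGTG, the E-box that MiT/TFE factors bind, which occurred in 7.2% of all windows. None held TTTGAA, the core of the cell cycle genes homology region, which occurred in 15.2% of all windows. The forkhead core TGTTTA (12.3% of all windows) was found only in that of GABARAPL1 (position −229 from its start). The antioxidant element TGACNNNGC (13.3%) was found only in that of MAP1LC3B (position −46). CCAAT (34.6%) occurred in the windows of WIPI1 and NBR1, and the shown match of WIPI1 lies at −201. No match overlapped one of another motif among those shown. These matches are shown with their flanks, each on the strand of its gene and with the motif in capitals, since GABARAPL1, MAP1LC3B and WIPI1 are among the genes whose responses differed between treatments below. SQSTM1, OPTN and TFEB, which also differed, had no match to any of the 5 motifs in these windows.
GABARAPL1, chr12:10212638-10212663, plus strand: gaataaaacaTGTTTAaatctttttt
MAP1LC3B, chr16:87392280-87392308, plus strand: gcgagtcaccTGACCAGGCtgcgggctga
WIPI1, chr17:68457683-68457707, minus strand: gggctcgtggCCAATggtggccgga
A match describes the letters in the window and nothing about binding.

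Between 16487394 and 30140550 read pairs per library were counted on genes, with the lowest depth in FDI6 (16487394 to 17741253) and control_FDI6 (18856286 to 21039750). The share of pairs that did not align was 7.68% to 10.93% in siBoth and siControl_Both and 1.73% to 3.03% in the other libraries. MYBL2 was at 6.39 ± 1.88 CPM in siMYBL2 (CPM, counts scaled to equal library size by TMM, mean ± SD, n = 4) against 154 ± 18.9 in siControl (n = 4), and at 8.54 ± 2.02 in siBoth against 174 ± 17.2 in siControl_Both (n = 3 each). FOXM1 was at 12.1 ± 1.30 CPM in siFOXM1 against 126 ± 12.98 in siControl (n = 4 each), at 13.2 ± 2.65 in siBoth against 137 ± 9.17 in siControl_Both (n = 3 each) and at 75.9 ± 14.0 in siMYBL2. With FDI-6, FOXM1 mRNA was at 100 ± 10.6 CPM against 129 ± 2.91 in control_FDI6 (n = 3 each). MYBL2 mRNA was also lower with FDI-6, at 136.5 ± 18.6 CPM against 194.7 ± 5.35. The log2 fold changes were −0.37 for FOXM1 (edgeR adjusted p = 0.004) and −0.51 for MYBL2 (edgeR adjusted p = 0.00105), neither over 1.5-fold. Each of the 6 epithelial markers checked (KRT7, KRT8, KRT18, KRT19, EPCAM and CDH1) was detected in every library, and their summed level ranged from 3820 to 10600 CPM. The 4 blood cell markers summed to at most 0.483 CPM in any library. Of the 7 alveolar type II markers only ABCA3 was over 1 CPM on average, and the surfactant genes SFTPA1, SFTPA2, SFTPB and SFTPC were at or near 0.

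SQSTM1 was the most abundant of these mRNAs. Levels per kilobase of the canonical transcript were compared in the control groups, since longer transcripts yield more read pairs. In siControl, SQSTM1 was at 252 ± 56.5 CPM per kilobase (SD, n = 4), followed by GABARAPL2 at 58.6 ± 8.999, MAP1LC3B at 39.8 ± 5.38, NBR1 at 32.3 ± 4.25, ULK1 at 23.4 ± 1.62, OPTN at 21.9 ± 4.94, GABARAPL1 at 20.3 ± 3.75, WIPI1 at 7.66 ± 0.888 and TFEB at 2.77 ± 0.280. SQSTM1 stood clear of the rest by far more than its spread, whereas ULK1, OPTN and GABARAPL1 lay within 1 SD of each other. In siControl_Both, MAP1LC3B (56.6 ± 5.45 CPM per kilobase, n = 3) and GABARAPL2 (54.4 ± 3.68) could not be ordered beyond their spread, and in control_FDI6 neither could TFEB (2.82 ± 0.336) and WIPI1 (2.61 ± 0.189).

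GABARAP could not be measured. It had between 1 and 13 counts in each of the 24 libraries, at most 0.502 CPM, and did not pass the filter on low counts in any comparison, so 9 of the 10 genes were tested. In GENCODE V44, 35.4% of its exon bases are shared with a same-strand gene (ENSG00000262526) that had 0 counts in all 24 libraries. HTSeq, run here on GENCODE V29, leaves out pairs that match more than 1 gene. Whether the low count of GABARAP comes from this was not tested. Of the related ATG8 genes, MAP1LC3B2 had 5 to 18 counts per library, MAP1LC3C 0 to 6 and MAP1LC3A 54 to 242.

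The 3 sets of controls differed in their levels of the same genes. OPTN was at 76.1 ± 17.2 CPM in siControl (n = 4), 116 ± 7.62 in siControl_Both (n = 3) and 32.2 ± 0.517 in control_FDI6 (n = 3). WIPI1 was at 14.6 ± 1.70 CPM, 21.4 ± 6.65 and 4.97 ± 0.361 in the same order, and GABARAPL1 was at 38.2 ± 7.06, 45.5 ± 5.58 and 21.2 ± 1.83 CPM. The control_FDI6 libraries were the lowest of the controls for these 3 genes, with no overlap with either siControl group. The same held for MAP1LC3B (at most 64.9 CPM, against at least 74.4 in siControl and 108 in siControl_Both). It also held for NBR1 (at most 122 CPM, against at least 128 and 152). For SQSTM1, GABARAPL2, ULK1 and TFEB, control_FDI6 overlapped with a siControl group. How many of all genes separate in this way was not counted. TFEB lay close together at 6.46 ± 0.654, 5.81 ± 1.63 and 6.58 ± 0.784 CPM. Between control_FDI6 and the siControl groups, transfection and experiment differ together and cannot be told apart. The siControl and siControl_Both libraries are both siRNA controls, of separate experiments. Each treatment was therefore compared with its own control.

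**Figure D1:**
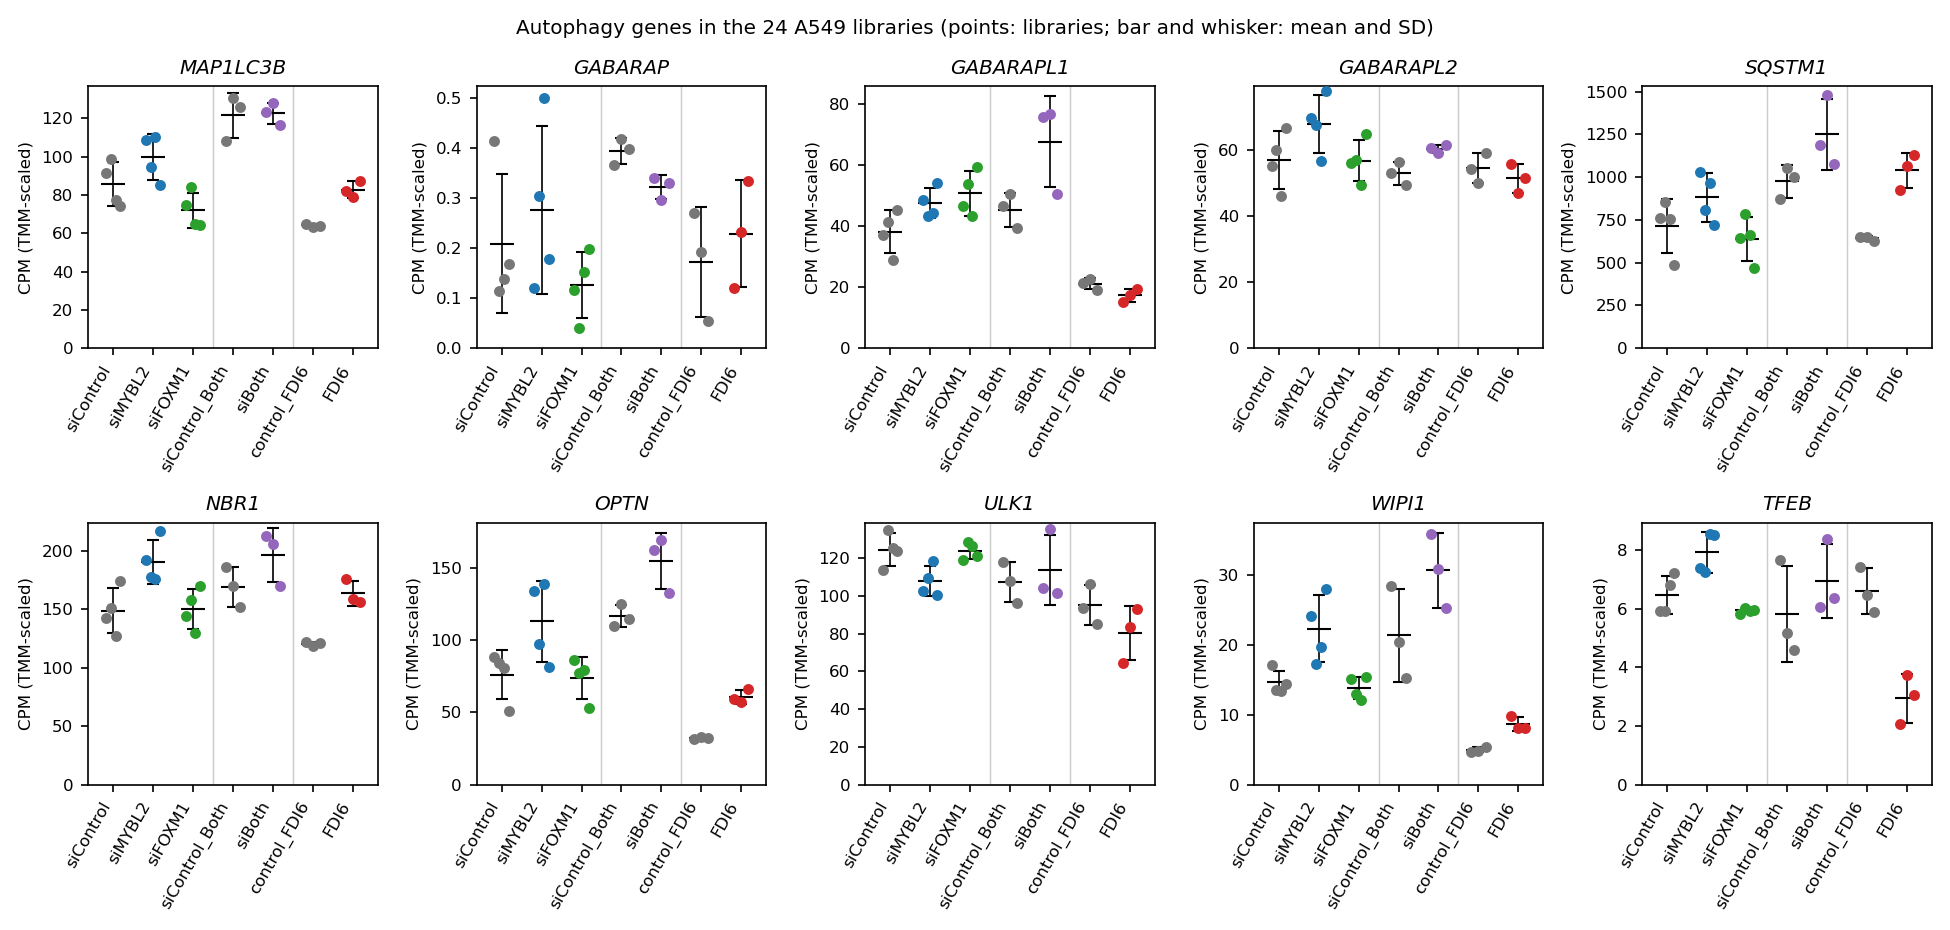
Level of each of the 10 genes in CPM (TMM-scaled, linear axis from 0) in the 24 libraries, with 1 point per library and the mean and SD of each group, and grey lines between the experiments. In the FDI6 panel sections, SQSTM1, OPTN and WIPI1 sit above all 3 control_FDI6 points and TFEB below all 3, while GABARAP stays at or under 0.502 CPM everywhere.

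FDI-6 gave the clearest response. SQSTM1, OPTN and WIPI1 rose and TFEB fell, each by over 1.5-fold. MAP1LC3B, an ATG8 gene, also rose, by 1.29-fold (edgeR adjusted p = 0.00188). That is under the 1.5-fold limit, and no tested ATG8 gene was called. A gene was called when it changed by over 1.5-fold with an adjusted p under 0.05 in edgeR's quasi-likelihood test. In bulk RNA, a smaller number of cells expressing a gene and a lower amount of its RNA per cell cannot be told apart. Of the 9 genes tested, 3 were called higher and 1 lower, against 8.0% of all 15240 genes tested called higher and 5.77% called lower. Their median log2 fold change was 0.37, against −0.01 for all genes tested.

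SQSTM1, the receptor p62, was at 652, 652 and 628 CPM in the control_FDI6 libraries and at 928, 1066 and 1130 CPM in the FDI6 libraries. The groups did not overlap, and the log2 fold change was 0.69 (SE 0.072, 1.61-fold, edgeR adjusted p = 3.15e-05). OPTN, the receptor best known from the clearance of mitochondria and bacteria, was at 31.8, 32.8 and 32.0 CPM in control_FDI6 and at 59.3, 57.0 and 66.3 CPM with FDI-6. Its controls lay within 1 CPM of each other, every treated library was well above them, and the log2 fold change was 0.92 (SE 0.083, 1.89-fold, edgeR adjusted p = 1.08e-05). NBR1, which shares with SQSTM1 a ubiquitin-binding domain, was at 122, 119 and 121 CPM in control_FDI6 and at 176, 159 and 156 CPM with FDI-6. Its groups did not overlap either, but the log2 fold change of 0.44 (SE 0.067, 1.35-fold, edgeR adjusted p = 0.000452) stayed under 1.5-fold, so NBR1 was not called.

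WIPI1, the PI3P reader, was at 4.71, 4.82 and 5.39 CPM in control_FDI6 and at 9.76, 8.09 and 8.18 CPM with FDI-6. Its lowest treated library was above its highest control, with a log2 fold change of 0.80 (SE 0.146, 1.74-fold, edgeR adjusted p = 0.00137). TFEB went the other way. It was at 7.42, 6.46 and 5.87 CPM in control_FDI6 and at 2.06, 3.73 and 3.06 CPM with FDI-6. The treated libraries were all under the lowest control, and the log2 fold change was −1.16 (SE 0.211, 0.449-fold, edgeR adjusted p = 0.00134). TFEB is a low-count gene, with 34 counts in the lowest FDI6 library. ULK1 was at 93.8, 107 and 85.3 CPM in control_FDI6 and at 64.7, 83.4 and 92.9 CPM with FDI-6. These ranges overlapped, and the log2 fold change was −0.25 (95% interval −0.52 to 0.02, edgeR adjusted p = 0.136).

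Among the ATG8 genes, MAP1LC3B was at 64.9, 63.3 and 64.0 CPM in control_FDI6 and at 82.0, 79.0 and 87.4 CPM with FDI-6. The groups did not overlap, but the log2 fold change of 0.37 (SE 0.071, 1.29-fold, edgeR adjusted p = 0.00188) stayed under 1.5-fold. GABARAPL1 was at 21.5, 22.9 and 19.2 CPM in control_FDI6 and at 15.3, 17.4 and 19.4 CPM with FDI-6. The highest treated library was just above the lowest control, with a log2 fold change of −0.29 (95% interval −0.54 to −0.04, edgeR adjusted p = 0.0625). GABARAPL2 had a log2 fold change of −0.09 (95% interval −0.28 to 0.11, edgeR adjusted p = 0.469), an interval that lies within 1.5-fold on either side.

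The 4 calls with FDI-6 were made in each of the 6 fits that left out 1 library and in each of the 9 other settings tried. The 6 epithelial markers summed to 9810 to 10600 CPM in control_FDI6 and to 6020 to 6940 CPM in FDI6. The 5 fibroblast markers, of which COL1A1 and COL3A1 were over 1 CPM on average while DCN, PDGFRB and COL1A2 were near 0, summed to 17.9 to 20.8 CPM and to 6.12 to 10.2 CPM. The 3 endothelial markers stayed at or under 0.524 CPM in these 6 libraries. The part of these shifts and of the lower depth in the results was not tested.

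**Figure D2:**
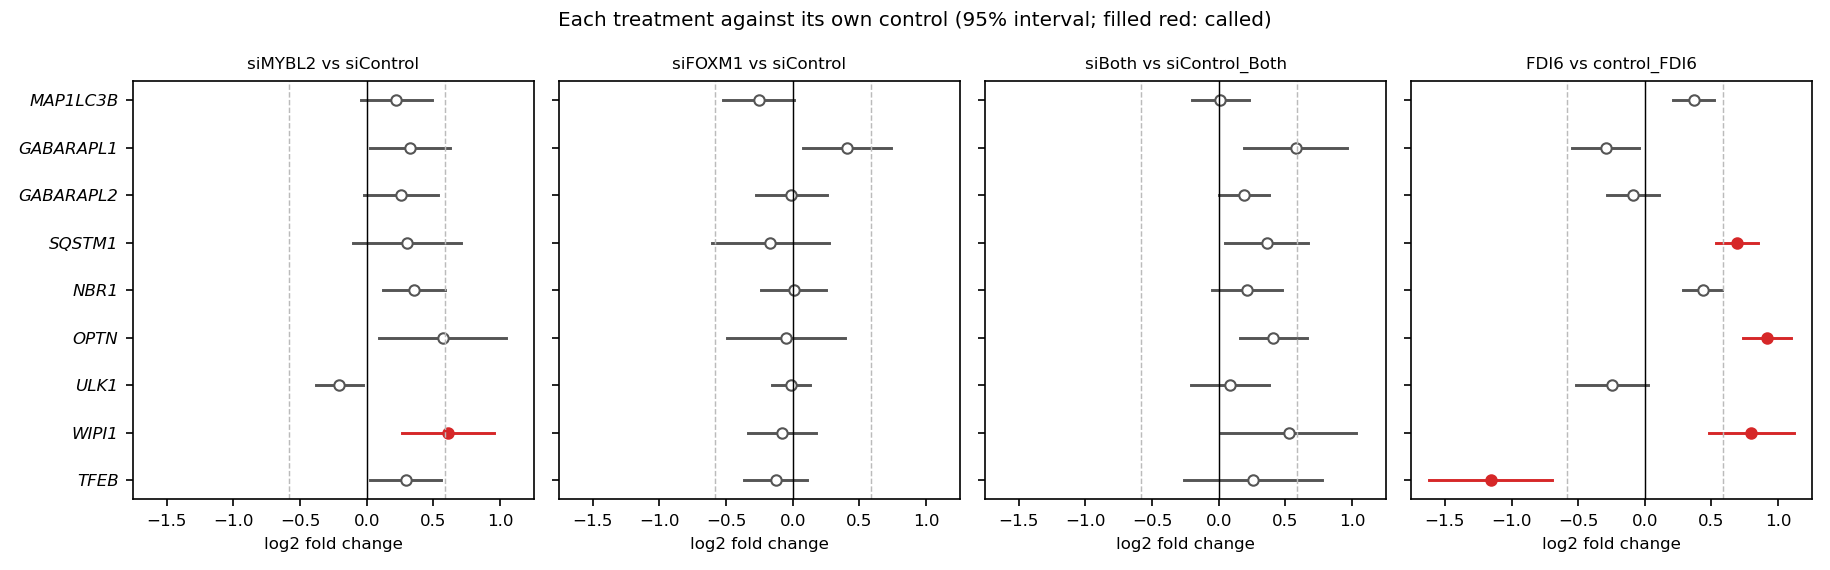
Log2 fold change of the 9 tested genes in each treatment against its own control, with 95% intervals that are not adjusted for the number of genes, filled red where called and with dashed lines at 1.5-fold. FDI6 has 4 called genes (SQSTM1 0.69, OPTN 0.92, WIPI1 0.80 and TFEB −1.16), siMYBL2 has 1 (WIPI1 0.61), and siFOXM1 and siBoth have 0.

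The genes around these 10 were described from 12 lists, in which 114 of the 118 other genes were tested in the FDI-6 comparison. A total of 13 were called higher and 2 lower, against 8.0% and 5.77% of all 15240 genes tested, with a median log2 fold change of 0.13. The integrated stress response, the translational stress pathway that also feeds autophagy gene transcription through ATF4 and CHOP, held the largest share of calls of the 12 lists, with 6 of 7 genes called higher, 0 lower and a median of 1.13. ATF3, an early stress transcription factor, rose from 4.13 ± 0.634 to 15.3 ± 2.64 CPM (SD, n = 3 each), a log2 fold change of 1.88 (SE 0.168, edgeR adjusted p = 9.71e-06). DDIT3 (CHOP) rose from 3.27 ± 0.390 to 8.58 ± 1.497 CPM, with a log2 fold change of 1.39. TRIB3, a pseudokinase induced by CHOP, rose from 78.4 ± 2.86 to 182 ± 26.4 CPM, with a log2 fold change of 1.21. The asparagine synthetase gene ASNS (log2 fold change 1.13), the glutathione-degrading enzyme CHAC1 (1.04) and SESN2 (0.94), whose product restrains mTORC1, were also called higher. ATF4 itself had a log2 fold change of 0.10 (95% interval −0.04 to 0.25, edgeR adjusted p = 0.246). The same 7 genes had 0 calls after siMYBL2 and siFOXM1 (median −0.44 in each, 3 and 2 genes at an unadjusted p under 0.05 by edgeR, 0 calls by DESeq2) and 1 call in siBoth (median 0.22). Over all genes tested, 5177 of 16065 after siMYBL2 and 2060 of 15892 after siFOXM1 had such an unadjusted p.

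Among 13 genes of MiT/TFE factors and their control, 12 were tested, 4 were called higher and TFEB alone lower, with a median of 0.17. FNIP1, which works with folliculin in the nutrient control of TFEB and TFE3, rose from 19.0 ± 2.60 to 42.3 ± 5.32 CPM (SD, n = 3 each), a log2 fold change of 1.15 (SE 0.121, edgeR adjusted p = 3.18e-05). The other 3 were named after their values were seen. RRAGD, a Rag GTPase that tethers mTORC1 and TFEB to the lysosome, had a log2 fold change of 0.84, FNIP2 of 0.59 and MITF, a relative of TFEB, of 0.78. MITF rose from 11.2 ± 0.597 to 19.3 ± 1.30 CPM, opposite in direction to TFEB. TFE3, the other widely expressed relative, had a log2 fold change of −0.04 (95% interval −0.23 to 0.15, edgeR adjusted p = 0.736).

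Calls in the core machinery were few or none per list, with 8.0% of all 15240 genes tested called higher and 5.77% lower. Among 17 cargo receptors only SQSTM1 and OPTN were called, with a median log2 fold change of 0.26. RB1CC1 (FIP200), the scaffold of the ULK1 complex, was the 1 gene called among the 5 of that complex, with a log2 fold change of 0.59. By edgeR, 0 of 4 tested ATG8 genes, 0 of 8 genes of the class III PI3K complex, 0 of 11 genes of ATG8 conjugation, 0 of 14 genes of autophagosome-lysosome fusion and 0 of 4 genes of chaperone-assisted autophagy were called. An unadjusted p under 0.05 by edgeR was reached by 2, 5, 4, 8 and 3 genes of these lists and by 7270 of all 15240 genes tested. DESeq2 called 0 in each of these lists. WIPI1 was the only call among 8 tested genes of lipid transfer and PI3P effectors. Of 24 lysosomal genes, the cathepsin gene CTSL rose from 280 ± 2.35 to 521 ± 41.3 CPM (log2 fold change 0.89) and CTSD was called lower (−0.76). Of 9 NRF2 partners and targets, SLC7A11 was called higher (0.60) and HMOX1 lower (−0.60), with a list median of −0.18. DESeq2 called 3 genes of that list. CTSD, SLC7A11, HMOX1 and RB1CC1 were named after their values were seen.

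**Figure D3:**
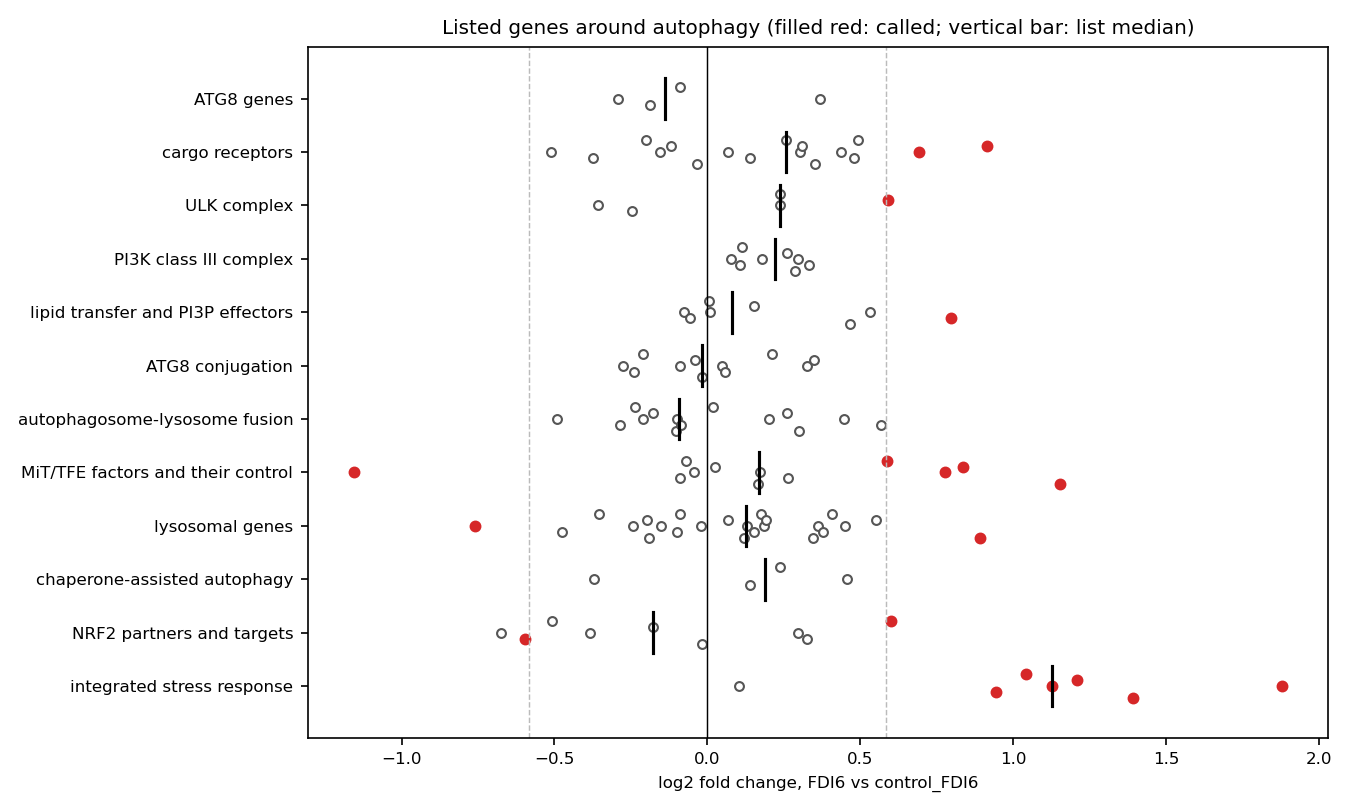
Log2 fold change with FDI-6 against control_FDI6 for every tested gene of the 12 lists, 1 point per gene and the members included, filled red where called, with a vertical bar at each list's median and dashed lines at 1.5-fold. The integrated stress response has 6 of 7 points called at a median of 1.13, the ATG8 genes have 0 called at a median of −0.14, and TFEB at −1.16 is the lowest point.

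After MYBL2 knockdown WIPI1 rose, and 8 of the 9 genes had a positive log2 fold change with a median of 0.30, against 0.02 for all genes tested. WIPI1 was the only gene called, so that 1 of 9 was called higher and 0 lower, against 4.38% and 3.52% of all 16065 genes tested. By edgeR, 6 of the 9 had an unadjusted p under 0.05, as did 5177 of all 16065 genes tested, and DESeq2 also called 1. WIPI1 was at 17.1, 13.6, 13.4 and 14.4 CPM in siControl replicates 1 to 4 and at 24.2, 17.3, 19.6 and 28.0 CPM in siMYBL2. The lowest siMYBL2 library was above the highest siControl library by a small margin, and the log2 fold change was 0.61 (SE 0.155, 1.53-fold, edgeR adjusted p = 0.0255). The call was lost when siMYBL2 replicate 1 (edgeR adjusted p = 0.0777), siMYBL2 replicate 4 (0.0501), siControl replicate 2 (0.077) or siControl replicate 3 (0.0718) was left out, with log2 fold changes of 0.56, 0.48, 0.57 and 0.57. Under the replicate block, which takes same-numbered libraries as pairs, 1991 genes in all were called in place of 1269, and WIPI1 had a log2 fold change of 0.60 (edgeR adjusted p = 0.000107).

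OPTN was at 88.5, 84.3, 80.7 and 50.7 CPM in siControl replicates 1 to 4 and at 134, 97.5, 138 and 81.5 CPM in siMYBL2. The ranges overlapped only through siMYBL2 replicate 4, which lay below siControl replicates 1 and 2. By replicate number, siMYBL2 was above siControl at all 4 numbers. The log2 fold change was 0.57 (SE 0.213, 1.48-fold, edgeR adjusted p = 0.0975), so OPTN was not called. It was called without siMYBL2 replicate 4 (log2 fold change 0.70, edgeR adjusted p = 0.0449). Under the replicate block its adjusted p was 3.04e-05, with 0.57 still under 1.5-fold, and it was called when that block was joined to the correction for GC content and length (0.59, edgeR adjusted p = 1.77e-05). NBR1 was at 143, 151, 128 and 175 CPM in siControl and at 192, 178, 176 and 217 CPM in siMYBL2, without overlap. Its log2 fold change was 0.36 (SE 0.103, 1.28-fold, edgeR adjusted p = 0.0413), under the 1.5-fold limit.

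TFEB was at 5.92, 5.91, 6.79 and 7.22 CPM in siControl and at 7.39, 7.25, 8.53 and 8.49 CPM in siMYBL2. The groups just cleared each other, with a log2 fold change of 0.29 (95% interval 0.03 to 0.56, edgeR adjusted p = 0.12). ULK1 was the 1 gene with a negative value, at −0.20 (95% interval −0.38 to −0.03, edgeR adjusted p = 0.103). SQSTM1 (0.30), MAP1LC3B (0.22), GABARAPL1 (0.32) and GABARAPL2 (0.26) had edgeR adjusted p-values of 0.128 to 0.276 and overlapping groups. By replicate number, siMYBL2 was above siControl at 4 of 4 numbers for GABARAPL1 and GABARAPL2 and at 3 of 4 for SQSTM1 and MAP1LC3B, and below it at 4 of 4 for ULK1. Under the replicate block the edgeR adjusted p was 0.00236 for GABARAPL1 (0.33), 0.000611 for GABARAPL2 (0.26), 0.00381 for SQSTM1 (0.32), 0.0176 for MAP1LC3B (0.22), 0.0153 for TFEB (0.29) and 0.00309 for ULK1 (−0.20), all under 1.5-fold. Of the 118 other listed genes, 114 were tested, 3 were called higher and 3 lower, with a median log2 fold change of 0.04. RETREG1 (FAM134B), the receptor for turnover of the endoplasmic reticulum, rose from 3.34 ± 0.676 to 7.07 ± 1.71 CPM (SD, n = 4 each), a log2 fold change of 1.09. RRAGD (0.80) and ATG4A, an ATG8-processing protease (0.60), were also called higher. LAMP1, the abundant lysosomal membrane glycoprotein, fell from 168 ± 5.68 to 67.2 ± 8.12 CPM, a log2 fold change of −1.32 (SE 0.086, edgeR adjusted p = 6.81e-05). ATG9A, the lipid scramblase of the growing membrane, fell from 37.1 ± 4.47 to 19.3 ± 1.57 CPM (log2 fold change −0.94), and HMOX1 was called lower (−0.72).

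After FOXM1 knockdown none of the 9 genes was called by edgeR, 1 had an unadjusted p under 0.05 and DESeq2 called 0. Among all 15892 genes tested, 0.0755% were called higher and 0.591% lower, and 2060 had an unadjusted p under 0.05 by edgeR. The median log2 fold change of the 9 was −0.05, against 0.00 for all genes tested. With the replicate block 401 genes were called in place of 106, and the count for these genes was again 0.

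The gene with the lowest p was GABARAPL1, at 37.1, 41.5, 28.9 and 45.4 CPM in siControl replicates 1 to 4 and at 46.6, 53.9, 43.3 and 59.5 CPM in siFOXM1. The ranges overlapped, but siFOXM1 was higher at each of the 4 replicate numbers. The log2 fold change was 0.41 (SE 0.145, 1.32-fold, edgeR adjusted p = 0.265), while the replicate block gave 0.41 and an edgeR adjusted p of 1.28e-07. SQSTM1 was at 764, 856, 755 and 484 CPM in siControl and at 645, 785, 660 and 469 CPM in siFOXM1. Each siFOXM1 library was below the siControl library of the same number, and the unpaired log2 fold change was −0.17 (95% interval −0.61 to 0.27, edgeR adjusted p = 0.823). MAP1LC3B was likewise lower at all 4 numbers, with a log2 fold change of −0.26 (95% interval −0.52 to 0.01, edgeR adjusted p = 0.407). Under the block SQSTM1 (−0.16) had an edgeR adjusted p of 0.000336 and MAP1LC3B (−0.25) one of 5.55e-06, both under 1.5-fold.

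The intervals of the remaining genes were narrow. They were −0.16 to 0.13 for ULK1, −0.24 to 0.25 for NBR1, −0.28 to 0.26 for GABARAPL2, −0.34 to 0.18 for WIPI1, −0.36 to 0.11 for TFEB and −0.49 to 0.39 for OPTN, so changes of 1.5-fold lay outside all 6 intervals. Of the 114 other listed genes tested, 1 was called. RAB7A, the small GTPase of late endosomes that is needed for fusion with the lysosome, fell from 224 ± 7.13 to 134 ± 11.4 CPM (SD, n = 4 each), a log2 fold change of −0.75 (SE 0.068, edgeR adjusted p = 0.00102).

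In the double knockdown none of the 9 genes was called by edgeR, although 5 had an unadjusted p under 0.05, and DESeq2 called 0. Their median log2 fold change was 0.26, against 0.02 for all genes tested. Among all 15812 genes tested, 2.8% were called higher and 3.64% lower, and 4683 had an unadjusted p under 0.05 by edgeR. The split was 443 higher and 576 lower, but 610 higher and 417 lower with upper-quartile scaling, and 1849 genes were called under the replicate block in place of 1019.

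GABARAPL1 was at 46.5, 50.5 and 39.5 CPM in siControl_Both replicates 1 to 3 and at 75.8, 76.98 and 50.6 CPM in siBoth. The third siBoth library was barely above the highest control while the other two were far above it, and the log2 fold change was 0.58 (SE 0.168, 1.49-fold, edgeR adjusted p = 0.0602). GABARAPL1 was called without siBoth replicate 3 (0.73, edgeR adjusted p = 0.00992) and with upper-quartile scaling (0.65, edgeR adjusted p = 0.0375). Under the block the value was 0.56 with an edgeR adjusted p of 5.94e-05, still under 1.5-fold.

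OPTN was at 110, 125 and 115 CPM in siControl_Both and at 162, 169 and 133 CPM in siBoth, without overlap. Its log2 fold change of 0.41 (SE 0.109, 1.33-fold, edgeR adjusted p = 0.0449) stayed under 1.5-fold. WIPI1 was at 28.4, 20.4 and 15.3 CPM in siControl_Both and at 35.8, 30.9 and 25.2 CPM in siBoth. The ranges overlapped because the controls spread widely, but siBoth was higher at all 3 replicate numbers. The unpaired log2 fold change was 0.52 (SE 0.220, 1.44-fold, edgeR adjusted p = 0.155). WIPI1 was called without siControl_Both replicate 1 (0.77, edgeR adjusted p = 0.0484).

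SQSTM1 was at 870, 1054 and 1001 CPM in siControl_Both and at 1190, 1483 and 1077 CPM in siBoth. The groups did not overlap, and the log2 fold change was 0.36 (95% interval 0.05 to 0.67, edgeR adjusted p = 0.122). MAP1LC3B had a log2 fold change of 0.01 (95% interval −0.20 to 0.23, edgeR adjusted p = 0.948). The siBoth libraries of GABARAPL2 (59.1 to 61.5 CPM) were also all above their controls (49.4 to 56.6). NBR1 (0.21), GABARAPL2 (0.19), ULK1 (0.08) and TFEB (0.26) had edgeR adjusted p-values of 0.16 to 0.701 in the unpaired fit. By replicate number, siBoth was above siControl_Both at 3 of 3 numbers for NBR1 and at 2 of 3 for ULK1 and TFEB. Of the 114 other listed genes tested, 2 were called higher and 1 lower, with a median of 0.06. SESN2 rose from 46.6 ± 7.57 to 79.6 ± 18.7 CPM (SD, n = 3 each, log2 fold change 0.77), and the PI3P-binding gene ZFYVE1 rose from 26.8 ± 1.64 to 40.5 ± 2.35 CPM (0.60). LAMP1 fell from 162 ± 6.22 to 90.3 ± 5.06 CPM, a log2 fold change of −0.84 (SE 0.080, edgeR adjusted p = 0.000905).

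The responses themselves were then compared. FDI-6 was set against the FOXM1 knockdown by subtracting the siFOXM1 effect from the FDI6 effect in a single fit, and 6 of 9 genes were called, against 11.5% of all 17026 genes tested. The difference in log2 fold change was 0.85 for SQSTM1 (SE 0.243, edgeR adjusted p = 0.0221), 0.96 for OPTN (SE 0.246, edgeR adjusted p = 0.0132), 0.62 for MAP1LC3B (SE 0.150, edgeR adjusted p = 0.00962) and 0.88 for WIPI1 (SE 0.181, edgeR adjusted p = 0.00383). It was −0.70 for GABARAPL1 (SE 0.208, edgeR adjusted p = 0.027) and −1.03 for TFEB (SE 0.235, edgeR adjusted p = 0.00682). The difference for NBR1 was 0.43 (95% interval 0.12 to 0.73, edgeR adjusted p = 0.0483), for GABARAPL2 −0.08 (−0.44 to 0.27) and for ULK1 −0.24 (−0.55 to 0.08). MAP1LC3B and GABARAPL1 are called here and not in either response alone, since their values lie on opposite sides of 0 in the 2 responses (0.37 and −0.26 for MAP1LC3B, −0.29 and 0.41 for GABARAPL1).

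The calls of OPTN, WIPI1 and TFEB were made in each of the 14 fits that left out 1 library, those of SQSTM1 in 12, of MAP1LC3B in 11 and of GABARAPL1 in 10. SQSTM1 was lost without control_FDI6 replicate 1 or 3 (edgeR adjusted p = 0.0519 and 0.0507). MAP1LC3B was lost without siFOXM1 replicate 3 or 4 or siControl replicate 2, with values of 0.58, 0.57 and 0.54 that lay under 1.5-fold. It was also lost, by the same limit, with upper-quartile scaling (0.56), with the correction for GC content and length (0.54) and with that correction joined to the replicate block (0.53). GABARAPL1 was lost without FDI6 replicate 1 or 2 or control_FDI6 replicate 1 or 2 (edgeR adjusted p = 0.0532 to 0.0771), and with the correction for GC content and length (−0.62, edgeR adjusted p = 0.0623). The transfected cells and the compound-treated cells come from separate experiments with controls at different levels, and experiment and agent cannot be told apart in these differences.

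Against the double knockdown, 2 of 9 genes were called, against 22.4% of all 16725 genes tested. TFEB differed by −1.42 on the log2 scale (SE 0.329, edgeR adjusted p = 0.00484) and GABARAPL1 by −0.88 (SE 0.215, edgeR adjusted p = 0.00683), each in all 12 fits that left out 1 library. OPTN differed by 0.50 (SE 0.134, edgeR adjusted p = 0.0115) and MAP1LC3B by 0.35 (SE 0.112, edgeR adjusted p = 0.029), both under 1.5-fold. SQSTM1 differed by 0.32 (95% interval −0.01 to 0.66, edgeR adjusted p = 0.125) and WIPI1 by 0.27 (95% interval −0.34 to 0.88, edgeR adjusted p = 0.501). Both intervals are wide enough to hold a 1.5-fold difference. SQSTM1 was called after the correction for GC content and length (0.59, edgeR adjusted p = 0.00572) and with that correction joined to the replicate block (0.59, edgeR adjusted p = 0.000133). In these 2 comparisons the split of all calls depended on scaling, with 1247 higher and 712 lower against siFOXM1 (1024 and 967 with upper-quartile scaling), and 2094 higher and 1653 lower against siBoth (1583 and 2335 with upper-quartile scaling, which put the median of all genes at −0.16 in place of −0.04).

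The single knockdowns were set against each other directly, since they share their controls. WIPI1 was the 1 gene of 9 called, against 10.2% of all 16172 genes tested, and was higher in siMYBL2 than in siFOXM1. It was at 24.2, 17.3, 19.6 and 28.0 CPM in siMYBL2 and at 15.1, 12.9, 12.2 and 15.4 CPM in siFOXM1, without overlap, with a log2 fold change of 0.69 (SE 0.154, 1.61-fold, edgeR adjusted p = 0.0119). It was lost without siMYBL2 replicate 4, at 0.56. OPTN was at 86.2, 76.8, 79.5 and 52.8 CPM in siFOXM1, overlapping its siMYBL2 values through replicate 4 of siMYBL2, and its log2 fold change of 0.61 (SE 0.199, edgeR adjusted p = 0.0529) just missed the threshold. OPTN was called under the replicate block (0.60, edgeR adjusted p = 3.23e-06). MAP1LC3B (0.47, edgeR adjusted p = 0.016), TFEB (0.42, edgeR adjusted p = 0.0182) and NBR1 (0.35, edgeR adjusted p = 0.029) had positive values that passed the p threshold but not 1.5-fold. The edgeR adjusted p-values of SQSTM1 (0.47), GABARAPL2 (0.26), ULK1 (−0.20) and GABARAPL1 (−0.09) were 0.0684 to 0.609.

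**Figure D4:**
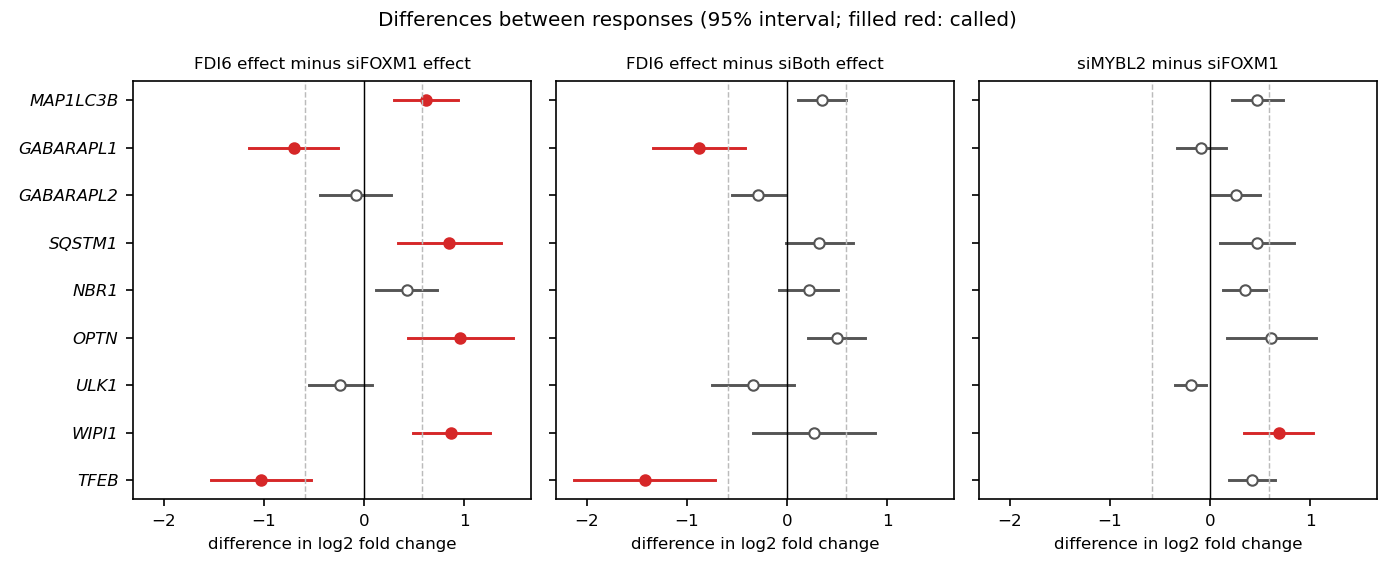
Difference in log2 fold change between responses for the 9 tested genes, with 95% intervals that are not adjusted for the number of genes, filled red where called and with dashed lines at 1.5-fold. TFEB lies at −1.03 and −1.42 and GABARAPL1 at −0.70 and −0.88 when the siFOXM1 and siBoth effects are taken from that of FDI-6, and WIPI1 at 0.69 is the call between the single knockdowns.

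For the 4 genes called in at least 1 treatment, the genes with the most similar pattern were found among 12560 others with a mean of at least 50 counts, by Pearson's r over the 24 libraries of log2 CPM after the mean of each experiment's controls was subtracted. The libraries share treatments, controls and replicate numbers, so r is a description only. For OPTN these were IRAK2 (r = 0.99), CORO2B (0.96) and CCL2 (0.96). For SQSTM1 they were NFKB2 (0.94), IRAK2 (0.94) and SLC25A37 (0.94). IRAK2, a kinase of interleukin-1 and Toll-like receptor signalling, was thus named for both receptors. For WIPI1 they were SEMA4B (0.91), EPS8 (0.91) and GALNT5 (0.88), and for TFEB KCTD17 (0.95), GPAA1 (0.95) and CDKN2C (0.94).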

How the data were processed

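The libraries were made from polyA RNA of A549 cells and sequenced as 150 bp read pairs. The authors trimmed the reads with TrimGalore, aligned them to hg38 with STAR and counted pairs per gene on GENCODE V29 with HTSeq, whose versions are not given in the sources used here. The deposited values are raw counts, not normalized, and HTSeq's rows of pairs without a gene (18.5% to 26.2% of pairs per library) were left out of library sizes. Identifiers were matched to GENCODE V44, which held 58207 of the 58721, and 514 were not found. The members and lists were chosen with earlier results of these data known.

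The quasi-likelihood test of edgeR 4.0.16 (R 4.3.3) was run per comparison on the groups it is about, after filterByExpr and TMM scaling, and p-values were adjusted by Benjamini-Hochberg over all genes tested. Calls needed a change over 1.5-fold and an adjusted p under 0.05. The standard error is the log2 fold change divided by the root of F, and 95% intervals use its degrees of freedom. Scripts were tested on simulated data. CPM values use TMM-scaled library sizes over the 24 libraries. All members were named in every comparison, with at most 8 called list genes per comparison by size of change. With FDI-6 all 15 called list genes were named, those beyond the first 8 after their values were seen. The 3 genes most similar to each called member were also named.

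Results were recomputed with DESeq2 1.42.0, with RLE or upper-quartile scaling, without the filter or with a minimum of 10 counts per library, with replicate number as a block, with offsets for GC content and length (splines of 5 degrees of freedom), with block and offsets joined, on all 24 libraries at once, and without each library in turn. The labels number the replicates. Deviations of same-numbered libraries correlated at 0.539 to 0.906 in the 3 knockdowns, with every pair over 0.1, and at −0.288 to 0.161 with FDI-6, so the numbers pair the knockdown libraries only. No 2 replicates agreed within counting noise (chi-square per gene 3.57 to 62.81 over 30 pairs). The study's methods call the replicates biological, the labels do not say whether cultures were separate, and p-values measure the spread between these libraries.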

Additional observations from a re-analysis of the deposited data

Results flagged for a closer look

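FDI-6 and the FOXM1 knockdown gave responses that differed by the test of the difference itself for 6 of 9 genes, against 11.5% of all 17026 genes tested. The calls of MAP1LC3B and GABARAPL1 were made in only 11 and 10 of the 14 fits that left out 1 library. The FDI6 effect minus the siFOXM1 effect on the log2 scale was 0.85 for SQSTM1, 0.96 for OPTN, 0.62 for MAP1LC3B, −0.70 for GABARAPL1, 0.88 for WIPI1 and −1.03 for TFEB. Against the double knockdown, the same kind of test gave −0.88 for GABARAPL1 and −1.42 for TFEB. These are 2 of 9 genes, against 22.4% of all 16725 genes tested. Between the single knockdowns, WIPI1 was higher in siMYBL2 by 0.69, as 1 of 9 genes called against 10.2% of all 16172 genes tested. Dixon's criterion flagged no library for any tested gene in the groups of 4 (27 groups tested), and the smaller groups were not tested. With 4 values it flags only extreme gaps, so it cannot decide whether a library stood apart. For OPTN in siControl, replicate 4 at 50.7 CPM was not flagged, against 80.7 to 88.5 CPM in the other replicates.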

How the results depend on the processing

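The 4 calls with FDI-6 were made under all 15 alternatives, as were the calls of TFEB and GABARAPL1 against siBoth under all 21. With FDI-6 against siFOXM1, 4 to 6 members were called. For siMYBL2 against siFOXM1, 2 members were called in place of 1 with DESeq2, without the filter, with a minimum of 10 counts, with upper-quartile scaling, with GC and length offsets, with the replicate block (with or without these offsets) and with all 24 libraries at once, the added gene being OPTN each time. For siMYBL2 the replicate block with offsets called 2 and leaving out a library 0 to 1, and for siBoth upper-quartile scaling called 1 and leaving out a library 0 to 1.

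For all genes, the replicate block called 1991 for siMYBL2, 401 for siFOXM1 and 1849 for siBoth, and with offsets 1994, 388 and 1606. The block changed no other call of a member. DESeq2 called 163 for siFOXM1, and no filter called 1545 for siBoth. GC and length offsets left 1344 for FDI-6 (1282 with the block), 1027 against siFOXM1 and 2024 against siBoth. Without 1 library, the counts were 56 to 115 for siFOXM1 and 587 to 1097 for siBoth. The count fell by over 1.5 times without siFOXM1 replicate 1 (56) or 3 (69) or siControl replicate 1 (66) or 2 (68), and without siBoth replicate 2 (587) or siControl_Both replicate 2 (589) or 3 (643).

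Reversals of sign were limited to uncalled values near 0. For siFOXM1 these were GABARAPL2 (0.013 with offsets, 0.016 with block and offsets, −0.096 to 0.075 without 1 library), NBR1 (−0.056 to 0.090), OPTN (−0.202 to 0.083), ULK1 (−0.056 to 0.027) and WIPI1 (−0.130 to 0.002). For siBoth they were MAP1LC3B (−0.000 with DESeq2, −0.070 to 0.066) and ULK1 (−0.001 with offsets, −0.060 to 0.150). Against siFOXM1 GABARAPL2 ran from −0.167 to 0.008, and against siBoth NBR1 was at −0.024 with offsets and −0.022 with block and offsets. Causes were not tested. Plain library totals moved 3 of 70 group levels by over 1 SD, all in control_FDI6. Of the tested genes, TFEB and WIPI1 have the fewest counts (at least 34 and 87). GABARAP did not pass the filter on low counts in any comparison.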
